A study of Mus musculus with 2 samples.

Results

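The genes described here were listed together as genes of the synaptonemal complex and of the meiotic chromosome axis. They are Sycp1, Sycp2, Sycp3, Syce1, Syce2, Tex11, Tex12, Tex15, Hormad1 and Hormad2, taken as the probe sets that the platform annotation assigns to 1 gene symbol, that of the gene. All 10 of the 10 listed genes were measured, out of 19938 genes named in this way. The study hybridized RNA of mouse embryonic stem (ES) cells to 2 Mouse Gene 1.0 ST arrays (Affymetrix), on which the probes of a gene cover its exons.

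Both arrays came from ES cells with a reverse tetracycline transactivator at the ROSA26 locus and a TRE-driven transgene for mouse CTCFL, a relative of the insulator protein CTCF that is normally made in male germ cells, fused to V5 and green fluorescent protein (GFP). They had been selected with G418 and were grown on gelatin with leukemia inhibitory factor. For the induced array the cells had 3 days of doxycycline and GFP-positive cells were sorted, whereas those of the non-induced array were left without doxycycline and without sorting. How many clones gave the RNA is not given in the sources used here. Each group was 1 array, so there was no replicate error and no test, and the differences describe these arrays only. Doxycycline, sorting and CTCFL cannot be told apart.

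During meiotic prophase each pair of sister chromatids is organised along a protein axis of cohesin, SYCP2, SYCP3 and the HORMA domain proteins, and the axes of paired homologous chromosomes are then joined along their length by SYCP1 filaments that meet in a central element. This structure, the synaptonemal complex, holds homologs together while recombination is completed. In ES cells, which divide by mitosis, many of these germ cell genes have low or partial transcription, held down by promoter DNA methylation and by a Polycomb complex that contains E2F6, MGA and MAX. MGA with MAX binds the E-box letters CACGTG, and E2F6 binds E2F letters such as TCCCGC.

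The sequences just upstream of 5 of the genes and of a related central element gene are shown here so that these letters can be read beside the differences. They were picked after the differences were known, as genes with wide differences, with and without the letters, and the gene that was higher. Each is the 250 bases before the RefSeq transcript start in GRCm38.p6, read 5′ to 3′ on the strand of the gene, with every CACGTG and every TCCCGC (or GCGGGA, its reverse complement) in capitals. Sycp3 and Sycp1 were lower in the induced array by the widest margin of the 10 genes, Six6os1 (4930447C04Rik) is the related gene, Hormad1 and Hormad2 were lower by less, and Syce1 was higher.
Sycp3, chr10:88459337-88459586, plus strand: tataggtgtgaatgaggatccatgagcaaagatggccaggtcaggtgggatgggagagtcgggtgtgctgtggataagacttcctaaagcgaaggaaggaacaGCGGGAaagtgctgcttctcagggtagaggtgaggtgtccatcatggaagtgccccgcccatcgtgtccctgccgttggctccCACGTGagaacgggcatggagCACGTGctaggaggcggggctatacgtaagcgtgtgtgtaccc
Sycp1, chr3:102936101-102936350, minus strand: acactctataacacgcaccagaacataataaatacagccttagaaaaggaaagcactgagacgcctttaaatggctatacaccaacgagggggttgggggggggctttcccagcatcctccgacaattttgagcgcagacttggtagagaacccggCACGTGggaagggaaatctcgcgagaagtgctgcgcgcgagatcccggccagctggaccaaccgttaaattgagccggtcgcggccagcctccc
Hormad1, chr3:95559427-95559676, plus strand: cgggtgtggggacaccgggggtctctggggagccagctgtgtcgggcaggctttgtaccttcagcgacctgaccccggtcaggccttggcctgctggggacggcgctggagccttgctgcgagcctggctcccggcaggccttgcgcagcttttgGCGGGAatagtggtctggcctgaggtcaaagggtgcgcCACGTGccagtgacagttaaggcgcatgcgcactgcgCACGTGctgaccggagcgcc
Hormad2, chr11:4441083-4441332, minus strand: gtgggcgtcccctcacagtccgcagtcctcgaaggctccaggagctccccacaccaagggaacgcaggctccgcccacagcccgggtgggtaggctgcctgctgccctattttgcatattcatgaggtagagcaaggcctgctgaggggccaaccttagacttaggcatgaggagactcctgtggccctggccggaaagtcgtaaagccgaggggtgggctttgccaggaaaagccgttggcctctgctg
Six6os1, chr12:72917766-72918015, minus strand: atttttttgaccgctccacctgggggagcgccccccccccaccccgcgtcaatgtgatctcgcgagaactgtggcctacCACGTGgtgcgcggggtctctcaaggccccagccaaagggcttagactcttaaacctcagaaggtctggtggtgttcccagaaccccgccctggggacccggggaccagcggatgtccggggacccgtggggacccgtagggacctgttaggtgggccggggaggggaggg
Syce1, chr7:140787855-140788104, minus strand: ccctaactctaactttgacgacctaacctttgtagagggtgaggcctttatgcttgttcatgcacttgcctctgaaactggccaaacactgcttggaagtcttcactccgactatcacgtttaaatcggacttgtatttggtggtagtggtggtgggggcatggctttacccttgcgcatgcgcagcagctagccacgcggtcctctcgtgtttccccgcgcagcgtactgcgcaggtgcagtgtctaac

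In Sycp3 the E-box letters began at positions -64 and -43 relative to the transcript start, and the E2F letters at -147. Hormad1, shown by the first of its 2 RefSeq starts, likewise held 2 copies of the E-box, at -57 and -20, with E2F letters at -95. Sycp1 held 1 E-box at -94, and Six6os1 held 1 at -171 and no E2F letters. The stretches of Hormad2, which was lower, and of Syce1, which was higher, held neither motif, and Syce2 and Tex12, which are not shown and had narrow differences, held both. In Syce2 the E-box, at -88, was found for the downstream RefSeq start only, and the upstream start had E2F letters alone.

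The genes were lower in the induced array as a group of values. Of the 10 genes 9 had a difference (induced minus non-induced log2 signal) below 0, where 48.6% of all 19938 genes did, and only Syce1 was above 0. The median difference of the 10 genes was -0.71 and the mean -0.73, beside a median of 0.01 over all genes, whose middle 50% lay between -0.24 and 0.26. In bulk RNA fewer cells with a transcript and less transcript per cell cannot be told apart.

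A gene was counted as lower or higher when its values differed by log2 1 or more and the higher of them reached a floor of 6.36, which is the median over all genes and both arrays. The floor was reached by 7 of the 10 genes and not by Sycp2, Tex11 and Tex12. Lower by this rule were 2 genes, Sycp3 and Sycp1, and 0 were higher. Both reached the floor in the non-induced array only, so that the rule could count them in that direction alone. Of the 10697 genes of the series at or above the floor 1.79% were lower and 0.477% higher. Without the floor the same 2 genes were lower, beside 1.49% of all genes. At log2 0.58 the count was 5 (Sycp1, Sycp3, Tex15, Hormad1 and Hormad2), beside 8.45% of the genes at or above the floor. In all, 6 of the 10 genes lay in the lowest 10% of differences of the series.

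**Figure D1:**
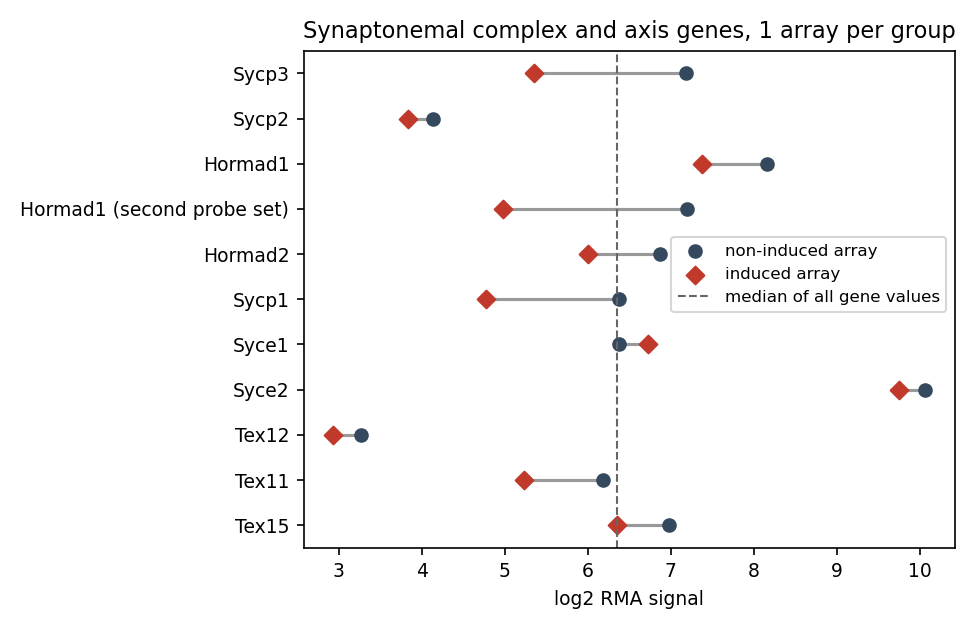
Log2 signal of each synaptonemal complex and axis gene in the induced array (diamonds) and the non-induced array (circles), joined by a line, with the median of all gene values (6.36) dashed. Levels can be compared within a line only, Syce1 has its induced value on the right (6.72 against 6.38), and the widest gap of the first probe sets is that of Sycp3 (5.35 against 7.18).

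Pairs of values from here on give the induced array first. The lateral elements, which are the axes within the complex, gave the widest difference of the 10 genes and a narrow one. Sycp3, whose product forms the fibres of the axis, had log2 signals of 5.35 induced and 7.18 non-induced. Its difference was -1.83, with the non-induced value above the floor and the induced value below it, and -1.28 with an offset of 32 on the linear scale. Sycp2, whose product binds SYCP3 and is needed for it to assemble, was at 3.83 and 4.14, a difference of -0.31. Both values of Sycp2 lay well below the floor, and 20.2% of all genes had a difference as low or lower.

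The HORMA domain proteins sit on axes that are not yet synapsed and leave them when homologs join. Hormad1 was at 7.38 induced and 8.16 non-induced by the brighter of its probe sets, a difference of -0.79 or 1.72-fold. Its other probe set gave 4.98 and 7.20, a difference of -2.22, with the induced value below the floor. The sets had the same direction but their sizes were far apart. Hormad1 lies on chromosome 3, and of the 10 probe sets numbered next to the brighter one 9 belong to genes of chromosome 3. All 10 of the 10 numbered next to the other one belong to genes of chromosome 6, and whether that set reads a copy of the gene elsewhere was not tested. Hormad2 was at 6.01 and 6.86, a difference of -0.86, so that 2.50% of genes were as low or lower. Like Sycp3 it was above the floor in the non-induced array only.

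Sycp1 encodes the transverse filament that bridges the axes of homologs. It was at 4.77 induced and 6.37 non-induced, a difference of -1.60. Its induced value was below the floor and its non-induced value only 0.015 above it, so that the count of Sycp1 as lower rests on where the floor was set.

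The central element genes Syce1, Syce2 and Tex12 had narrow differences. Syce1, which binds the ends of the SYCP1 filaments, was at 6.72 induced and 6.38 non-induced, higher by 0.34 or 1.27-fold. Syce2, which forms fibres along the central element, was at 9.75 and 10.1, a difference of -0.31, with both values well above the floor. Tex12, the partner of SYCE2 in these fibres, was at 2.94 and 3.28, a difference of -0.34, with both values far below the floor. The differences of Syce2 and Tex12 had 19.7% and 18.2% of all genes at or below them, and 81.4% of genes were at or below that of Syce1.

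TEX11 and TEX15 act in meiotic recombination. Tex11, an X-linked gene for a protein of the synapsis and crossover machinery, was at 5.23 and 6.18, a difference of -0.95 with 1.77% of genes as low or lower. Its higher value missed the floor by 0.17. Tex15, which is needed for repair of meiotic double-strand breaks and for silencing of transposons in male germ cells, was at 6.35 and 6.98, a difference of -0.63 with 6.10% of genes as low or lower. Its induced value was just under the floor.

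**Figure D2:**
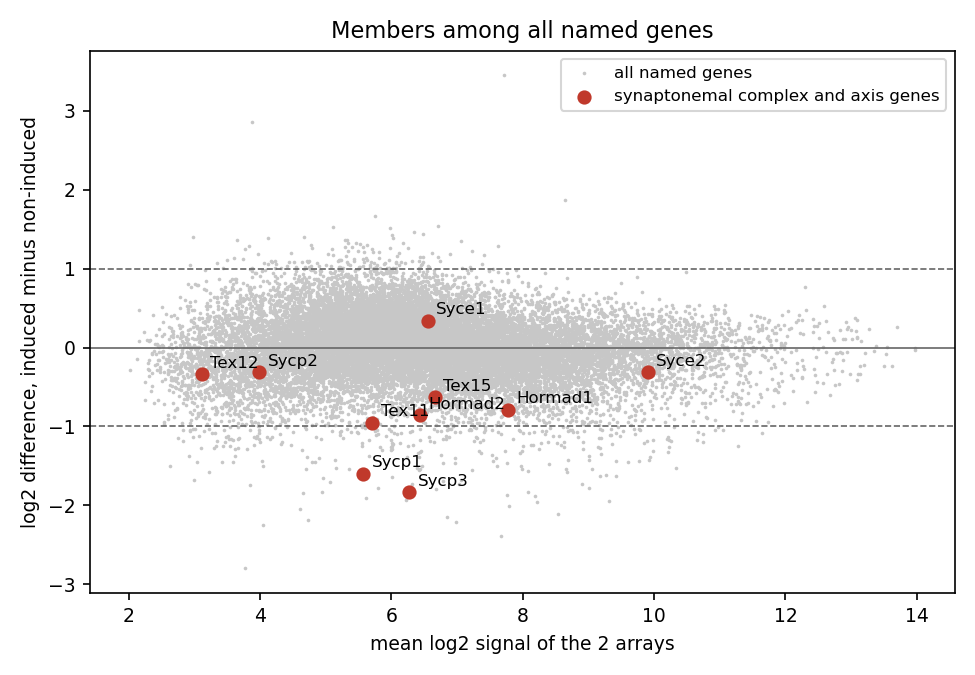
Difference of induced and non-induced log2 signal plotted over the mean of the arrays for 19938 genes (grey) and the 10 synaptonemal complex and axis genes (red, named), with log2 1 and -1 dashed. Sycp3 (-1.83) and Sycp1 (-1.60) lie below the lower dashed line and Tex11 (-0.95) just above it, while Syce1 (0.34) is the only named gene above 0.

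Centring, lowess or quantile normalization of the arrays left the direction of each of the 10 genes as it was. The deposited values were also centred on the median, freed of a trend with level by lowess, quantile normalized again, given an offset of 32 on the linear scale, or averaged over the probe sets of a gene. Sycp3 ranged from -1.95 (lowess) to -1.28 (offset), and Syce1 stayed above 0, from 0.24 to 0.34. The offset, which shrinks differences of dim genes and cannot change their sign, took Sycp1 to -0.95 and Tex11 to -0.59. Tex11 passed log2 -1 after centring (-1.05), lowess (-1.09) and quantile normalization (-1.06) but was under the floor in each. With the mean of its probe sets Hormad1 was at -1.50 and counted as lower.

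**Figure D3:**
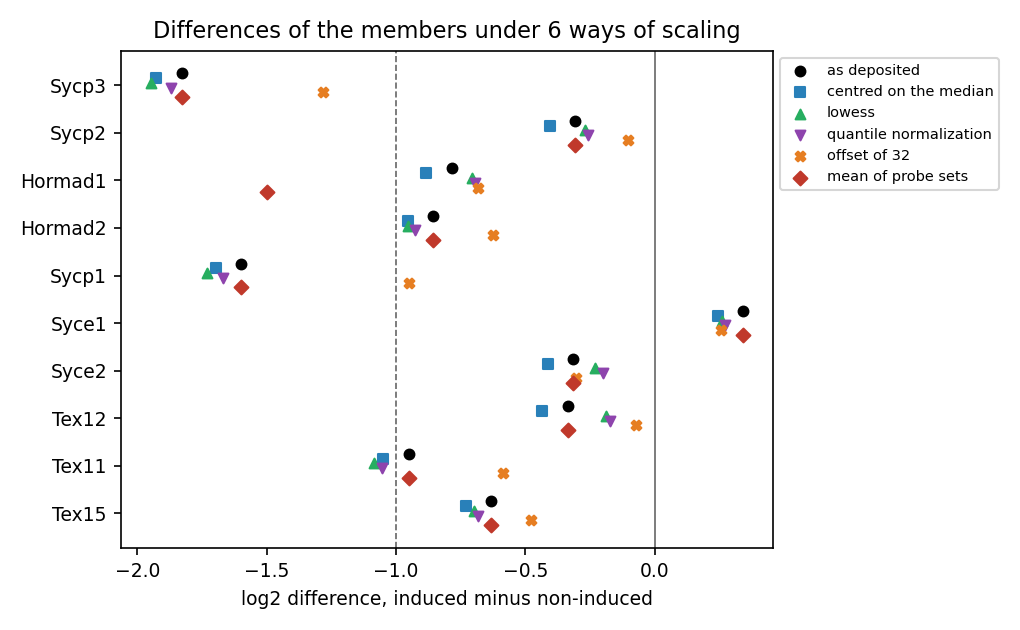
Signed log2 difference (positive where the induced array was higher) of each gene as deposited and after 5 other ways of processing, 1 symbol per setting, with -1 dashed. Syce1 lies above 0 and the other 9 genes below 0 under each of them, and the widest shifts are those of Hormad1 with the mean of its probe sets (-1.50) and of Sycp1 (-0.95) and Sycp3 (-1.28) with the offset of 32.

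The 10 genes lie on 8 chromosomes, and their neighbours were read beside them. The nearest measured gene on each side was taken from the RefSeq annotation, 20 genes in all, and their differences ran from -0.56 (Golph3l, beside Hormad1) to 0.56 (Zfp941, beside Syce1) with a median of -0.03. Of the neighbours 11 were below 0 and 9 above, beside 48.6% of all genes below 0. Past log2 1 in either direction were 0 of the 20. Of all 19938 genes 297 were lower and 141 higher by that size, so 0 of 20 is near that share. For 8 of the 10 genes the difference was farther below 0 than those of both neighbours, the exceptions being Syce1 and Tex12. The share of all genes for which this holds was not computed. Beside Sycp3, Gnptab was at 6.71 and 6.76 (-0.06), and Chpt1, which overlaps Sycp3, at 5.71 and 5.81 (-0.11). Beside Sycp1, Tshb was at 4.11 and 4.29 (-0.18) and Nr1h5 at 4.10 and 3.96 (0.14). Chpt1, Tshb and Nr1h5 were below the floor in both arrays, where background signal limits how far a drop can show. Drops of log2 1 did occur below the floor, since 297 genes were lower without it and 191 with it.

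**Figure D4:**
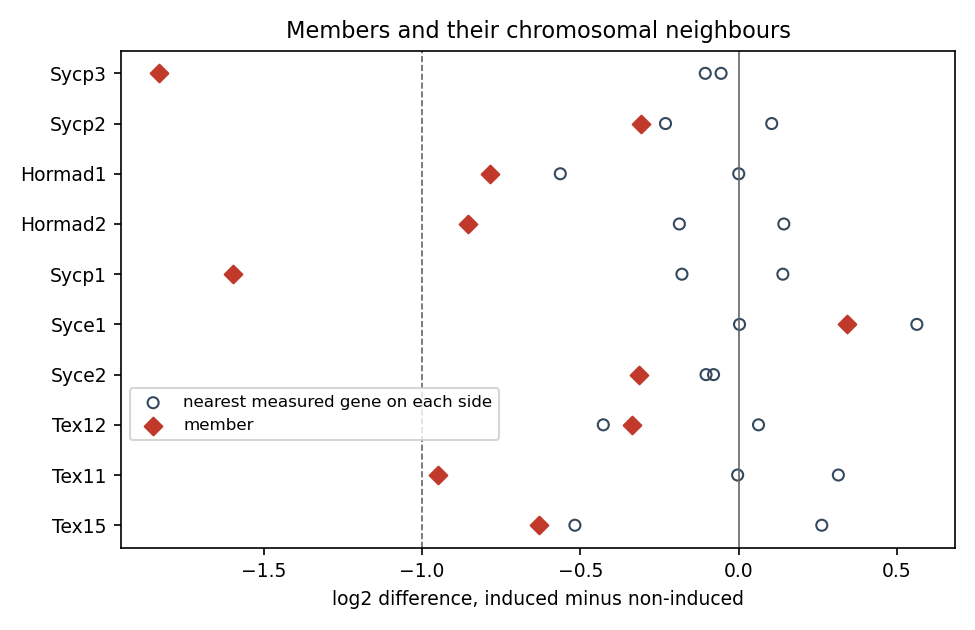
Signed log2 difference (positive where induced was higher) of each gene (diamonds) and of the nearest measured gene on each side (open circles), with -1 dashed. The neighbours span -0.56 to 0.56, and Sycp3 (-1.83) and Sycp1 (-1.60) lie far to the left of theirs. Both neighbours of Sycp1, and Chpt1 beside Sycp3, were below the floor in both arrays.

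Promoter letters were compared with the differences. RefSeq windows of 300 bases (250 before and 50 after the transcript start) matched 8 of the 10 genes, with 10 windows. The E-box CACGTG, a palindrome, was in 5 of the 8 genes (Sycp3, Sycp1, Hormad1, Syce2 and Tex12), beside 9.50% of the 15614 measured genes with a window. By window it was in 6 of the 10, beside 7.15% of all 32851 windows. The E2F letters TCCCGC, searched on both strands, were in the same 5 genes, beside 20.0% of all windows, those of Sycp1 starting after its transcript start. The letters AGGNGGC, a core of the CTCF motif, also searched on both strands, were in Sycp2, Sycp3, Syce2 and Tex12, beside 29.4% of all windows. For the E2F and CTCF letters the share of genes was not computed. A gene with several windows has more chances to hold the letters, so these window shares and the gene counts are unlike measures. The windows of the 8 genes held 10 to 33 CpG dinucleotides against a median of 7 over all windows, and each CACGTG holds a CpG itself.

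Genes with and without the E-box overlapped in their differences. Those with it ranged from -1.83 (Sycp3) to -0.31 (Syce2), and Sycp2, Syce1 and Hormad2, without it, from -0.86 (Hormad2) to 0.34 (Syce1). Over the 15614 measured genes with a window, the 1483 with an E-box had a median difference of -0.04 and the others 0.02. These matches describe letters in the window and not binding.

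A list of 15 related genes was split. It mixes synaptonemal complex genes with genes of telomere attachment and of double-strand break formation, Trip13 and Cdk2. Of the 15 genes 11 were measured, with a median difference of 0.08. As deposited 4 were below 0 and 7 above, where 48.6% of all genes were below 0. After centring, lowess or quantile normalization 6 of the 11 were below 0 and 5 above. Six6os1 was the only central element gene measured in this list, so the split does not describe the complex itself. Six6os1, a central element gene whose product binds SYCE1, was at 5.44 induced and 7.17 non-induced, a difference of -1.73 with the induced value below the floor, and was the only one past log2 1. It remained past log2 1 under each scaling, from -1.85 to -1.22. Its neighbours Ppm1a (-0.01) and Six6 (0.31, below the floor in both arrays) were near 0 or above it. Mei4, needed for double-strand breaks, was at 6.74 and 6.22 (0.52), Terb1, which ties telomeres to the nuclear envelope, was at 4.86 and 4.57 (0.30), and Majin, its membrane partner, at 5.90 and 5.63 (0.27).

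The widest difference upwards in the related lists was that of a single subunit of cohesin, the ring on which the axis is built. Rec8, the meiotic kleisin subunit, was at 7.73 induced and 6.38 non-induced, a difference of 1.35 or 2.54-fold, and stayed above log2 1 under each scaling. The other meiotic subunits stayed within log2 1, with Smc1b at 4.85 and 5.30 (-0.45), Stag3 at 6.33 and 6.43 (-0.10) and Rad21l at 3.88 and 3.74 (0.15), which was below 0 with the mean of its 2 probe sets. Of the 5 mitotic subunits, all above the floor, 4 were below 0 with a median of -0.23, beside 53.4% of the genes at or above the floor. The widest was Stag2, an X-linked gene, at 8.52 and 9.48 (-0.96). It passed log2 -1 after centring (-1.06) but was narrower after lowess (-0.86), quantile normalization (-0.84) and the offset (-0.90). The median of the 5 was -0.33 after centring, -0.13 after lowess and -0.10 after quantile normalization.

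The genes of meiotic recombination stayed within log2 1. Of 19 listed 14 were measured, and 10 of these were below 0, beside 48.6% of all genes. Their median was -0.26, beside 0.01 over all genes. Shoc1, a crossover gene, was at 4.36 and 5.16 (-0.80), Mlh3, a mismatch repair gene for crossover resolution, at 7.07 and 7.62 (-0.55), Ccnb1ip1, which limits crossover sites, at 7.42 and 7.93 (-0.51) and Meiob, which binds single-stranded DNA, at 2.99 and 3.49 (-0.50). Only 5 of the 14 reached the floor. Xlr, an X-linked relative of Sycp3, was at 2.93 and 3.75 (-0.82), below the floor, and was the only gene measured of 12 listed in that family, whose copies are nearly identical.

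Genes for proteins that repress meiotic genes were lower by small amounts. All 15 of the 15 listed reached the floor and were below 0 as deposited, beside 53.4% of the genes at or above the floor, with a median of -0.27, a range of -0.57 to -0.03 and 0 past log2 1. Uhrf1 was above 0 after lowess, and Uhrf1 and Dnmt1 after quantile normalization. Mga was at 7.77 and 8.33 (-0.57), the DNA methyltransferase gene Dnmt3b at 7.42 and 7.94 (-0.51), the Polycomb ubiquitin ligase gene Rnf2 at 9.31 and 9.75 (-0.44) and the heterochromatin protein gene Cbx3 at 10.9 and 11.3 (-0.43, by the brightest of 7 probe sets). Cbx3 lies on chromosome 6, but that probe set is numbered close to one of a chromosome 14 gene. Whether it reads a copy of Cbx3 elsewhere was not tested. With the mean of probe sets all 15 genes were again below 0. E2f6 was at 7.12 and 7.50 (-0.38) and Max at 8.05 and 8.42 (-0.37). Of 10 activators of the meiotic programme 9 were measured, 6 of them below 0 (beside 48.6% of all genes), with a median of -0.02. Stra8, which drives meiotic entry, was at 5.93 and 5.01 (0.92), below the floor in both arrays.

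**Figure D5:**
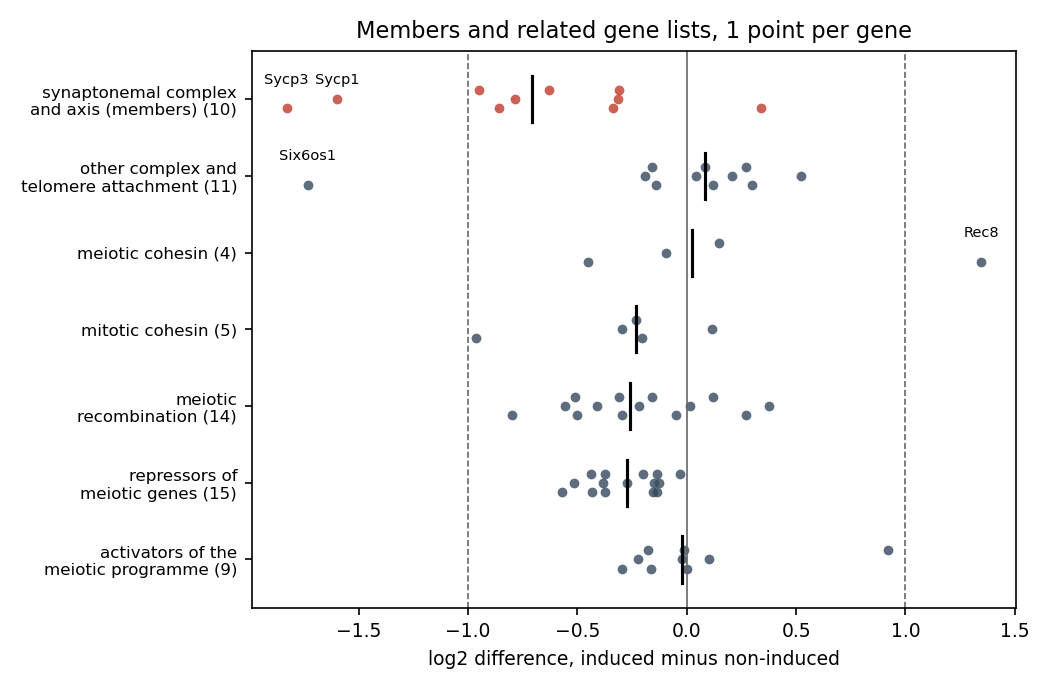
Log2 difference (induced minus non-induced) of the synaptonemal complex and axis genes (red) and of genes of 6 related lists (blue), 1 point per gene, with the number measured in brackets, the median as a black bar and log2 1 and -1 dashed. The red points have a median of -0.71, Six6os1 (-1.73) lies with Sycp3 and Sycp1, and Rec8 (1.35) is the only point above 1.

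The labels and the cell type were checked on other genes. Ctcfl was at 9.44 induced and 5.99 non-induced, as the labels say. All 8 of the 8 ES cell markers (Pou5f1, Nanog, Sox2, Esrrb, Zfp42, Tdgf1, Utf1 and Dppa5a) were above the floor, between 9.27 and 13.2 induced and between 9.62 and 13.0 non-induced, with differences of -0.46 to 0.14. Of 9 male germ cell markers 5 reached the floor and 6 were below 0, beside 48.6% of all genes. The median difference of the 9 was -0.13, with a range of -0.57 (Mael) to 0.58 (Zbtb16). Their summed linear signal was 722 induced and 795 non-induced. All 7 fibroblast markers reached the floor. Of these 6 were above 0 and only Vim (-0.25) was below 0, beside 53.4% of the genes at or above the floor. The summed signal of the 7 was 3776 and 3377. No marker was at 0, and the part of these differences in those of the synaptonemal complex genes was not tested.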

How the data were processed

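The deposited values are log2 signals, 1 per probe set and array, which the authors made from 300 ng of total RNA per array by robust multi-array averaging (RMA: background correction, quantile normalization and summary of the probes of a set). The log2 scale was read from RMA and from the range of the values, 1.36 to 14.5. The versions of the software and of the array annotation, and its build, are not given in the sources.

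Only the 21789 probe sets with 1 gene symbol were used, out of 35557 (1621 had several and 12147 had none). Of the named sets 21698 matched RefSeq (GRCm38.p6), which gave chromosomes, neighbours and promoters. For 999 genes with several probe sets, the brightest by its mean was used. Arrays give no counting error, and 1 array per group limits the precision, so no test was made. The self-check ran on simulated data.

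Named were all 10 genes, genes of each related list past log2 1 above the floor, up to 4 with the widest differences per list, neighbours of genes past the size and Ctcfl. Named outside this rule were E2f6, Max, Uhrf1, Dnmt1, Golph3l, Zfp941 and the neighbours of Six6os1. The genes and lists were chosen with earlier results of these data known. Alternatives were 5 scalings or probe set rules, a size of log2 0.58, no floor, a floor at the 75th percentile, the mean, and the genes at or above the floor. A value counted as moved when it shifted by more than the semi-interquartile range of all differences, 0.25, and a count when it changed by more than 1.5 times. Python 3.11.15, numpy 2.4.6, pandas 2.3.3, statsmodels 0.14.6 (lowess fraction 0.3) and matplotlib 3.10.9 were used.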

Additional observations from a re-analysis of the deposited data

How the results depend on the processing

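Of the 10 alternatives 5 recompute the differences of the 10 genes. Their direction did not change under centring, lowess or quantile normalization. The offset keeps each direction by construction, and the mean of probe sets alters Hormad1 alone, so these could not show a change in the other genes. The other 5 changed the counting rule or the summary, and of 78 values recomputed over the 10 alternatives 8 moved and 0 reversed. Only Sycp1, Sycp3 and the median of the 10 genes could be labelled reversed. The label was not given to counts or to genes not counted as lower or higher. The count of lower genes, 2 as deposited, was 1 with the offset of 32 (Sycp3), 5 at a size of log2 0.58, and 0 with the floor at the 75th percentile (7.64), since the higher values of Sycp1 and Sycp3 lie below that level. With the mean of probe sets it was 3, through Hormad1 at -1.50. The lower share of all genes above the floor was 1.01% with the offset, 2.47% with the higher floor and 2.52% after centring. The median of the 10 genes ran from -0.81 (centred) to -0.53 (offset). With the offset Sycp1 moved to -0.95, Sycp3 to -1.28, Tex11 to -0.59 and Tex12 to -0.07, by construction, since it shrinks low values. No array can be left out with 1 per group. No paired analysis was possible because each group holds 1 array. Background signal limits what a difference can show below the floor, where Sycp2, Tex11 and Tex12 lay in both arrays and Sycp1, Sycp3, Hormad2 and Tex15 in the induced array, which includes both genes counted as lower and 4 of the 5 counted at log2 0.58.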
